A study of Homo sapiens with 39 samples.

Results

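A set of 10 genes of the Wnt signalling pathway were followed in RNA from human B cell lymphoma lines: the ligands WNT10A, WNT10B and WNT3, the nuclear factors LEF1, TCF7 (also called TCF-1) and TCF7L2, the destruction complex scaffolds AXIN1 and AXIN2, CTNNB1, which encodes beta-catenin, and DACT3. They are 10 of the 15808 genes in the count table, found by gene symbol through their Ensembl IDs. The set was chosen by measured values of these same libraries, because WNT10A and WNT10B were much lower in treated DOHH2 cells and DACT3 was higher in treated Toledo cells. Those 3 within-line differences are therefore described without a test. WNT10A and WNT10B were tested in the lines other than DOHH2, DACT3 in the lines other than Toledo, and the remaining 7 genes in all 4 lines.

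Every library came from cells exposed for 6 h. NEO2734, which blocks the bromodomains of the BET proteins and of CBP/p300, and OTX015 (birabresib), which blocks those of the BET proteins, each had 3 libraries in each of 4 lines. CB103, an inhibitor of the Notch transcription complex, had 3 libraries in OCILy10, and each line had 3 libraries with the vehicle DMSO, for 39 libraries in 13 groups. DOHH2 and Toledo are established lymphoma lines of the germinal centre B cell type, and OCILy10 and TMD8 of the activated B cell type. The labels give no dose, so NEO2734 and OTX015 could not be matched by dose, and separate cultures for the replicates are not stated either. A p-value here measures the spread between libraries, which may be technical. Lines grown by themselves lack the surrounding tissue, which in the body is another source of Wnt ligands.

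In canonical Wnt signalling, a secreted Wnt protein binds a Frizzled receptor with an LRP co-receptor at the cell surface. Without ligand, a complex built on AXIN1 or AXIN2 together with APC, GSK3 and casein kinase 1 marks beta-catenin for destruction. With ligand, beta-catenin accumulates, enters the nucleus and binds the factors LEF1, TCF7 and TCF7L2, which then activate targets such as AXIN2 and LEF1 itself. DACT3 belongs to the Dapper family, whose members bind Dishevelled, the protein that relays the signal inward, and it is known as a Wnt antagonist. In lymphoid cells LEF1 and TCF7 are best known from T cells, and LEF1 also from early B cell precursors.

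Promoter sequences are shown for the 5 genes called with NEO2734 over the lines, so that the start regions of genes that moved in opposite directions can be read side by side. Each is the 250 bases before the RefSeq start on GRCh38.p14, written 5′ to 3′ on the gene's own strand. Capitals mark the GC box GGGCGG on either strand, a letter pattern of SP family factors, and in WNT10A also the NF-kB consensus.
WNT10A: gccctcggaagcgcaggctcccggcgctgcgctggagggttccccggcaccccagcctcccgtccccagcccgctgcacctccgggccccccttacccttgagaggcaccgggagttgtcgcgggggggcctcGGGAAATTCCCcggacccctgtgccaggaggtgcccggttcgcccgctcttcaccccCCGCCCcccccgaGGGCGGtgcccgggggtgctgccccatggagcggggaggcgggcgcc
WNT3: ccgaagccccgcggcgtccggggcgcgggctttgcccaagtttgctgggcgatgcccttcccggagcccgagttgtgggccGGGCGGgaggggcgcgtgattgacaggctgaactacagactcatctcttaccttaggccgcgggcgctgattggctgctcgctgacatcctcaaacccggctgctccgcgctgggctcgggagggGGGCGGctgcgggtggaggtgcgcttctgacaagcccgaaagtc
LEF1: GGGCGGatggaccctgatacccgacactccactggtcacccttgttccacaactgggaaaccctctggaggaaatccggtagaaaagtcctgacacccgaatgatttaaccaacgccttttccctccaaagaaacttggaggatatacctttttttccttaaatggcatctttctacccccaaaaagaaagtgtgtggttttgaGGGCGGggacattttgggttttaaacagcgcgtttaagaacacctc
DACT3: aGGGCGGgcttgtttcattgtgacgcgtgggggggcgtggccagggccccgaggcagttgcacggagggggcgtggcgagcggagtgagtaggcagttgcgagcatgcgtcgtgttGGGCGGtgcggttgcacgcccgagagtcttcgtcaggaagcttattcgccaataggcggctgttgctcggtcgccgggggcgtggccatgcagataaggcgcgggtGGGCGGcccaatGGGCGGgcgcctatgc
CTNNB1: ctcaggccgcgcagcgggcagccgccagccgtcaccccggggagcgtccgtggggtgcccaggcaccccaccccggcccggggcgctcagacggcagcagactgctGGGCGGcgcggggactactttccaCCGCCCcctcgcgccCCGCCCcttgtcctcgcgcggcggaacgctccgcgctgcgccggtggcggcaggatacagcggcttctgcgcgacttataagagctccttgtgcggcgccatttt
The WNT10A stretch lies at chr2:218880602-218880851 on the plus strand, that of WNT3 at chr17:46818693-46818942 on the minus strand and that of LEF1 at chr4:108166302-108166551 on the minus strand. That of DACT3 lies at chr19:46661183-46661432 on the minus strand and that of CTNNB1 at chr3:41199255-41199504 on the plus strand. For WNT10A, WNT3, LEF1 and CTNNB1 the outermost GENCODE 29 start lies further upstream, so these stretches lie inside the gene's full span, and that of DACT3 lies just outside it.

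These letters can be read against all 35116 RefSeq promoters of the same length. A GC box was present in 42.6% of them and in all 5 shown: 2 in WNT10A, WNT3 and LEF1, 3 in CTNNB1 and 4 in DACT3, where the nearest began 16 bases before the start. DACT3 has a 2nd RefSeq promoter, at chr19:46654719-46654968, which is not shown. It had 1 GC box, which began 114 bases before its start, and a GC content of 62.4%. The TCF/LEF core, searched as CTTTGA or CTTTGT on both strands, was in 22.8% of all promoters and in none of the 5 shown. The E-box CACGTG (6.34% of all) and the TATA box TATAAA (10.7%) were also in none of the 5. The NF-kB consensus was in 9.96% of all promoters and in WNT10A alone of the 5, as 2 overlapping matches that began 117 and 116 bases before the start. GC content was 77.6% in WNT10A, 68.8% in WNT3, 47.6% in LEF1, 68.4% in DACT3 and 74.4% in CTNNB1, against a median of 58.0% over all promoters, so LEF1 alone lay under it. Of the 10 genes, 8 had a RefSeq entry; WNT10B and AXIN2 are named only. A match is a description of letters, not a binding site.

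Library totals ran between 1000281 and 11668542 counts, with 15 deep libraries of at least 6670250 and 24 shallow ones of at most 3420458. In 3 libraries, genes otherwise private to another line were present: OCILy10 genes stood at 72.2% of their level in OCILy10 in Toledo DMSO replicate 2 and at 10.6% in DOHH2 NEO2734 replicate 3, and Toledo genes at 25.8% of their level in Toledo in OCILy10 CB103 replicate 2. In the other 36 libraries such genes reached at most 2.18%. Toledo's own private genes stood at 37.0% of their Toledo level in Toledo DMSO replicate 2, against 157% and 114% in replicates 1 and 3. By these genes that library lay closer to OCILy10 than to Toledo. It was kept in the Toledo DMSO values and in the main fit. All 6 B cell markers were detected in all 39 libraries, with summed levels between 391 and 3900 CPM. CPM are counts per 1000000 counts of the TMM-adjusted library size, and fold changes are log2 ± SE from an edgeR quasi-likelihood fit over 12814 genes with Benjamini-Hochberg adjustment. In these bulk samples, fewer cells with a transcript and less of it per cell cannot be told apart.

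NEO2734 lowered the ligand genes WNT10A and WNT3 and the nuclear factor gene LEF1, and raised CTNNB1 and DACT3. WNT10A was at 0.298 of its DMSO level over the 3 lines other than DOHH2 and LEF1 at 0.424 over the 4 lines, while CTNNB1 was 1.35-fold higher over the 4 lines and DACT3 5.24-fold higher over the 3 lines other than Toledo. WNT3 was called over the 4 lines, but with 0 counts in a group no fold could be given there, and over the 3 lines other than DOHH2, an average added after the data were seen, it was at 0.478. These were 5 of the 9 members that passed the filter on low counts (2 higher and 3 lower at an adjusted p under 0.05). AXIN2 is among the 9, but with 0 counts in all TMD8 libraries its mean could not be decided with either compound. With OTX015, DACT3 was 3.21-fold and CTNNB1 1.22-fold higher, and they were the 2 of 9 members called. Among all genes tested, 20.5% were called with NEO2734 over the 4 lines, 16.4% without DOHH2 and 14.5% without Toledo, and 11.6%, 9.22% and 5.6% with OTX015 over the same sets of lines. The members were picked with results of these data in view, so nothing is read from their share against these backgrounds.

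**Figure D1:**
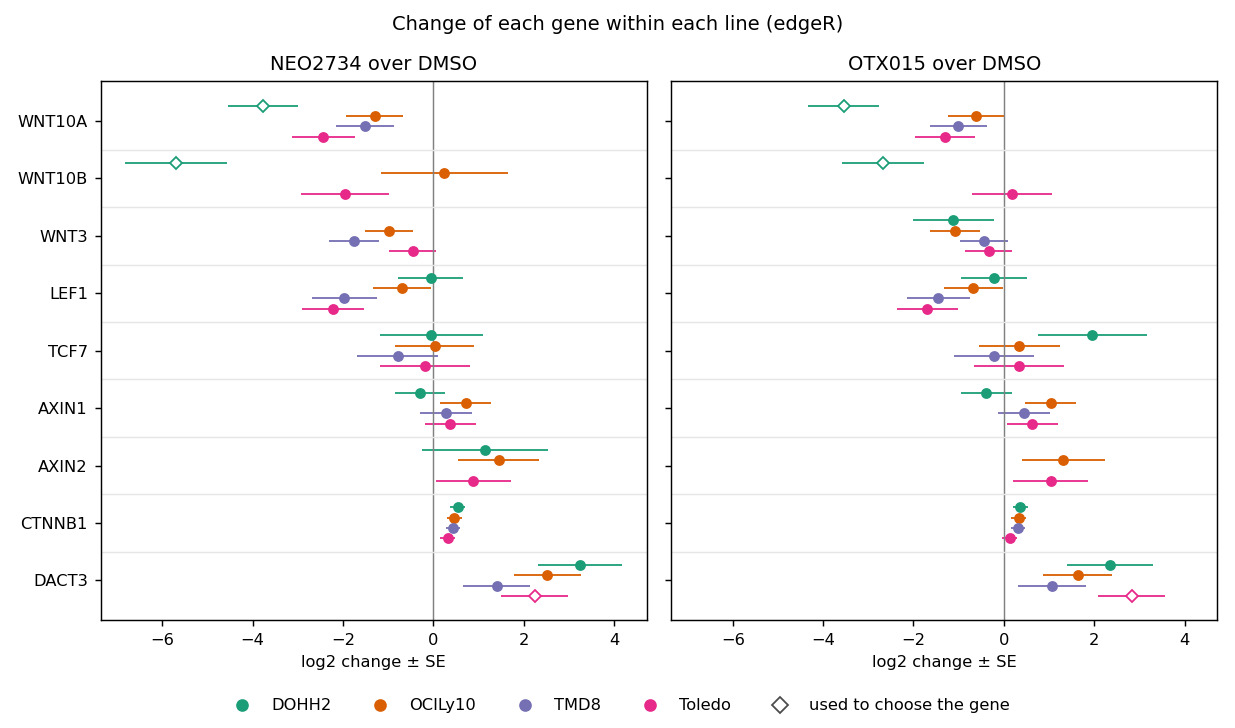
Log2 change ± SE against DMSO within each line (horizontal axis) for 9 of the genes (vertical axis), with NEO2734 and OTX015 in separate panels; hollow diamonds mark the values used to choose the set. WNT10A and LEF1 points lie to the left of 0 in all lines with both compounds, and CTNNB1 and DACT3 points lie to the right of 0.

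WNT10A (ENSG00000135925.7, chr2:218880363-218899581, plus strand, GENCODE 29 on GRCh38), a ligand of the beta-catenin branch, fell with NEO2734 in the 3 lines not used to choose it. In TMD8 it had 5.23, 14.9 and 21.4 CPM with NEO2734 and 29.7, 34.3 and 51.4 CPM with DMSO, so the groups did not overlap. In Toledo it had 4.21, 1.69 and 2.27 CPM with NEO2734 and 5.53, 26.2 and 12.3 CPM with DMSO, again with every treated library below every vehicle one. In OCILy10 the levels were 6.19, 16.7 and 16.7 CPM with NEO2734 and 15.2, 35.7 and 46.2 CPM with DMSO, and replicate 1 of DMSO lay below replicates 2 and 3 of NEO2734. The mean over these lines was −1.75 ± 0.38 on the log2 scale (adjusted p = 0.0017 by edgeR's quasi-likelihood test), and it stayed between −1.90 and −1.48, called each time, when each of the 18 libraries was left out in turn.

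Within single lines, the NEO2734 difference of WNT10A was called in Toledo alone, at −2.44 ± 0.70 (adjusted p = 0.0355). That call was lost without Toledo DMSO replicate 2, in which OCILy10 genes were found, at −1.64 (adjusted p = 0.454), and also without NEO2734 replicate 1, 2 or 3 (adjusted p = 0.0822, 0.155 and 0.126). In TMD8 the value was −1.51 ± 0.65 (adjusted p = 0.31), and with the replicate number as a block −1.65 ± 0.47 (adjusted p = 0.0382). In TMD8 pairing by replicate number cannot be told apart from library depth. In OCILy10 it was −1.30 ± 0.63 (adjusted p = 0.453). The 15 deep libraries alone gave a mean of −1.67 over the 3 lines (adjusted p = 0.103) and the 24 shallow ones −1.83 (adjusted p = 0.00698).

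With OTX015, WNT10A had 13.9, 17.2 and 26.3 CPM in TMD8, all below its DMSO libraries, 12.7, 12.8 and 37.7 CPM in OCILy10 and 7.96, 7.18 and 2.56 CPM in Toledo, where both groups overlapped with DMSO. The mean over these lines was −0.98 ± 0.37 and did not pass the test (adjusted p = 0.0981). In DOHH2, the line used for the choice, WNT10A had 1.33, 1.24 and 0.531 CPM with NEO2734 (11, 2 and 1 counts), 0.369, 2.23 and 2.15 CPM with OTX015 and 5.89, 17.3 and 23.9 CPM with DMSO (52, 28 and 37 counts). That is −3.78 ± 0.77 with NEO2734 and −3.54 ± 0.79 with OTX015, as a description. The NEO2734 value was −2.16 in the deep libraries and −4.44 in the shallow ones of WNT10A.

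WNT10B (ENSG00000169884.12, chr12:48965340-48971763, minus strand), the closest relative of WNT10A, had nearly all of its counts in DOHH2 and, at lower levels, in Toledo. In DOHH2 it had 0.242, 0 and 0 CPM with NEO2734, 1.84, 0.558 and 1.43 CPM with OTX015 and 6.69, 7.43 and 12.3 CPM with DMSO, and no treated library reached a vehicle one. The NEO2734 libraries held 2 counts and the DMSO libraries 90, a pooled ratio of 0.0227 (95% exact counting interval 0.0027 to 0.0842, counting error only), and OTX015 stood at −2.68 ± 0.91. In Toledo, outside the choice, WNT10B had 0.468, 0.563 and 0.412 CPM with NEO2734, 1.64, 3.27 and 1.70 CPM with OTX015 and 2.68, 1.64 and 1.02 CPM with DMSO. All NEO2734 libraries lay below all DMSO ones there, but with 1, 1 and 4 counts the difference of −1.96 ± 0.97 did not pass the test (adjusted p = 0.31). In OCILy10 and TMD8, no group held more than 3 counts.

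WNT3 (ENSG00000108379.8, chr17:46762506-46833154, minus strand), another ligand of the beta-catenin branch, fell with NEO2734 over OCILy10, TMD8 and Toledo by 1.07 on the log2 scale (SE 0.31, adjusted p = 0.0173). In OCILy10 it had 1.22, 2.90 and 2.85 CPM with NEO2734 and 4.47, 5.04 and 4.02 CPM with DMSO. In TMD8 it had 2.56, 2.62 and 0 CPM with NEO2734 and 6.26, 6.09 and 7.21 CPM with DMSO. Neither pair of groups overlapped, whereas in Toledo 7.02, 10.1 and 9.16 CPM with NEO2734 overlapped with 12.3, 8.74 and 15.3 CPM with DMSO. No single line passed the test, with −1.76 ± 0.56 in TMD8 (adjusted p = 0.104), −0.98 ± 0.53 in OCILy10 (0.549) and −0.46 ± 0.52 in Toledo (0.812).

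The average of WNT3 over these 3 lines was chosen after the data were seen, because the DOHH2 NEO2734 libraries held no WNT3 count. Over all 4 lines the adjusted p was 0.00431, and that call was lost (adjusted p = 1.0) without DOHH2 DMSO replicate 1, which held all 3 WNT3 counts of DOHH2 with DMSO. Leaving out each library in turn kept the 3-line value between −1.19 and −0.917. With OTX015, WNT3 had 1.98, 2.26 and 2.16 CPM in OCILy10 and 5.44, 3.59 and 5.26 CPM in TMD8, all below the DMSO libraries of their line, and 11, 9.80 and 7.67 CPM in Toledo. The 4-line mean of −0.75 ± 0.33 did not pass the test (adjusted p = 0.195).

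**Figure D2:**
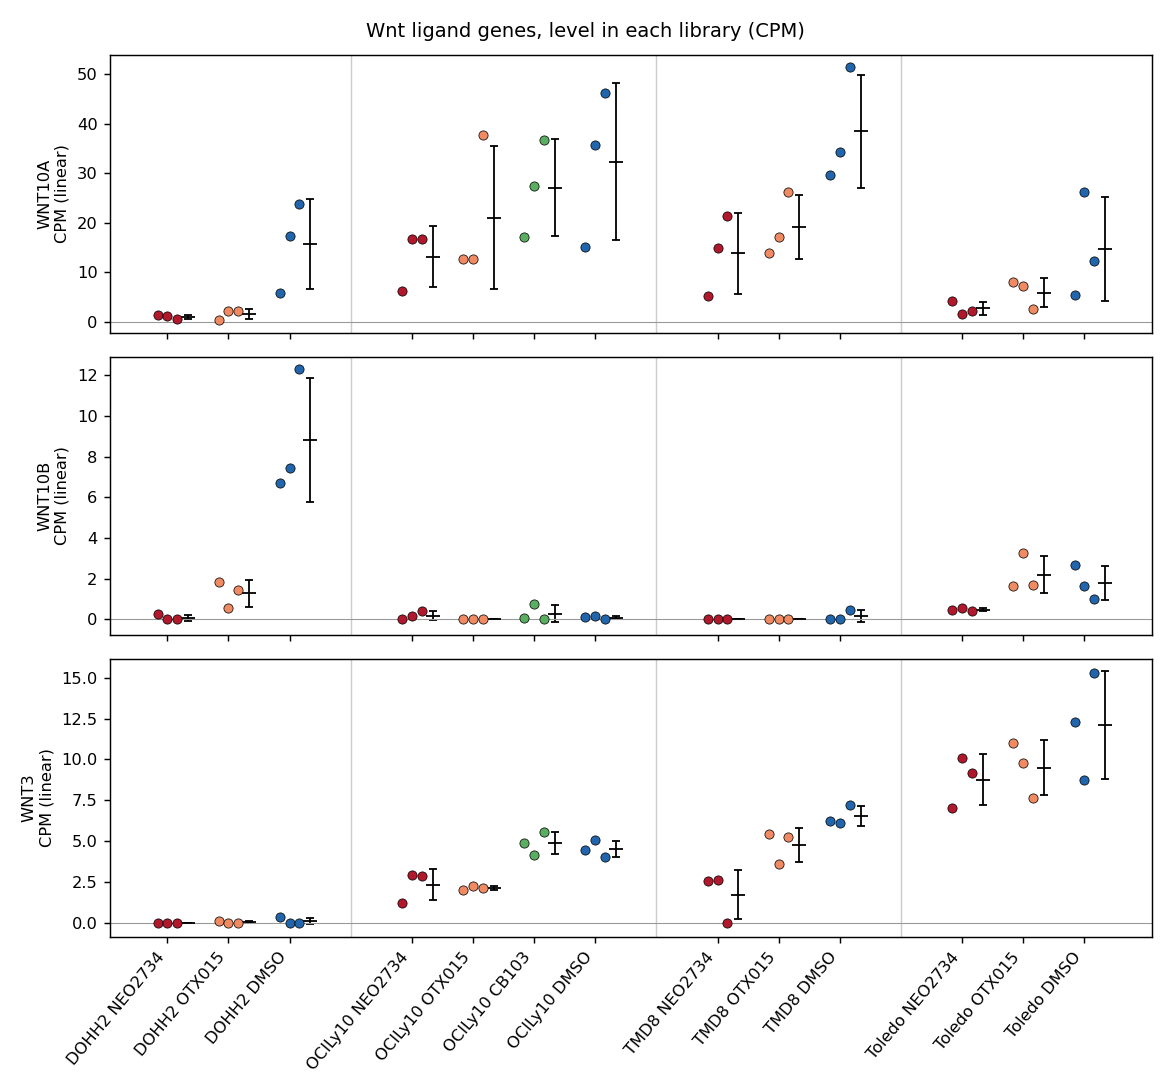
CPM (linear axis) of WNT10A, WNT10B and WNT3 in each of the 39 libraries, by line and compound; points are replicates 1 to 3 and the dash with its bar is mean ± SD. WNT10A is lower with NEO2734 than with DMSO in every line by its mean, WNT10B is nearly limited to DOHH2 and Toledo, and WNT3 is at or near 0 in DOHH2.

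LEF1 (ENSG00000138795.8, chr4:108047545-108168956, minus strand), the DNA-binding partner of beta-catenin that is also a Wnt target, fell with NEO2734 over the 4 lines by 1.24 on the log2 scale (SE 0.345, adjusted p = 0.00975). The groups separated in TMD8 and Toledo. In TMD8 LEF1 had 6.19, 1.31 and 0.765 CPM with NEO2734, 8.16, 4.30 and 0.526 CPM with OTX015 and 15.1, 13.9 and 9.13 CPM with DMSO. In Toledo it had 5.14, 6.75 and 12.8 CPM with NEO2734, 19.6, 8.49 and 7.67 CPM with OTX015 and 45.5, 42.1 and 30.7 CPM with DMSO. In both lines all treated libraries lay below all vehicle ones.

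In OCILy10 LEF1 had 43.5, 28.1 and 15.5 CPM with NEO2734, 48.7, 21.9 and 17.2 CPM with OTX015 and 65.2, 55.4 and 20.6 CPM with DMSO, with overlap. In DOHH2 it had 2.54, 6.22 and 11.7 CPM with NEO2734, 3.94, 5.02 and 9.32 CPM with OTX015 and 4.99, 3.71 and 12.3 CPM with DMSO, so the ranges nearly coincided. The within-line NEO2734 values were −2.22 ± 0.69 in Toledo (adjusted p = 0.054), −1.97 ± 0.71 in TMD8 (0.184), −0.70 ± 0.65 in OCILy10 (0.863) and −0.06 ± 0.72 in DOHH2 (1.0). With the replicate block, TMD8 passed the test for LEF1 at −2.34 ± 0.50 (adjusted p = 0.00633). The difference between lines in the NEO2734 response was not called.

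The LEF1 mean with NEO2734 kept its call in all 24 leave-one-out fits (−1.62 to −1.08) and in the deep libraries (−1.23, adjusted p = 0.0268) and the shallow ones (−1.54, adjusted p = 0.00746) by themselves. With OTX015 the mean was −1.01 ± 0.34 and did not pass the test (adjusted p = 0.0535). That side of the threshold depended on the fit: LEF1 with OTX015 was called by DESeq2 (adjusted p = 0.0194), with RLE factors (0.0416), the replicate block (0.00125), a depth term (0.0133) and in the shallow libraries alone (0.0318), and in 6 of 24 leave-one-out fits. LEF1 overlaps the antisense gene LEF1-AS1, and since the strandedness of the counting is not given in the sources used here, reads of the pair cannot be told apart. T cells express LEF1 and TCF7, and of 8 T cell markers 3 are in the count table (CD2, TRAC, CD247). CD3D, CD3E, CD3G, CD7 and CD28 are not in it. CD2 had counts in 14 of the 39 libraries, and TRAC and CD247 in 25 each. The summed level of these 3 markers was 2.85 to 6.53 CPM with NEO2734, 4.31 to 8.88 with OTX015 and 32.6 to 80.4 CPM with DMSO in OCILy10. In Toledo it was 0 to 0.824 CPM with NEO2734, 0 to 0.505 with OTX015 and 0 to 39.9 CPM with DMSO, where 39.9 CPM was that of Toledo DMSO replicate 2. In TMD8 the sum was 0 to 0.747 CPM with NEO2734 and 0.108 to 1.11 CPM with DMSO. The part of these transcripts in the LEF1 values was not tested, and without the 3 libraries with genes of another line the Toledo value was −2.17 ± 0.74 (adjusted p = 0.227).

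TCF7 (ENSG00000081059.18, chr5:134114711-134151865, plus strand), a factor of the same family, did not pass the test with either compound. Its mean difference was −0.25 ± 0.53 with NEO2734 (adjusted p = 0.855) and 0.60 ± 0.50 with OTX015 (adjusted p = 0.536), intervals wide enough to hold changes in either direction. TMD8, its highest line, had 6.61, 5.25 and 10.7 CPM with NEO2734, 6.09, 21.5 and 6.32 CPM with OTX015 and 11.3, 17.7 and 9.61 CPM with DMSO, and OCILy10 had 5.16, 6.82 and 4.07 CPM with NEO2734 and 3.83, 7.92 and 4.02 CPM with DMSO. In Toledo with DMSO the levels were 0.316, 4.37 and 0 CPM, and the 4.37 CPM belonged to replicate 2. TCF7 overlaps SKP1 on the other strand. TCF7L2 (ENSG00000148737.14, chr10:112950250-113167678, plus strand), the family member best known from gut and pancreas, lay between 0 and 3.02 CPM and was left untested by the filter on low counts.

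CTNNB1 (ENSG00000168036.15, chr3:41194741-41260096, plus strand), the beta-catenin gene and the most abundant member, rose with NEO2734 over the 4 lines by 0.44 ± 0.08 on the log2 scale (adjusted p = 0.000191) and with OTX015 by 0.28 ± 0.08 (adjusted p = 0.0189). In DOHH2 it had 264, 317 and 325 CPM with NEO2734, 225, 277 and 302 CPM with OTX015 and 180, 223 and 222 CPM with DMSO. In OCILy10 it had 749, 717 and 725 CPM with NEO2734, 667, 686 and 645 CPM with OTX015 and 542, 535 and 513 CPM with DMSO. All treated libraries of both lines were above all vehicle ones.

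In TMD8 CTNNB1 had 467, 385 and 437 CPM with NEO2734, 434, 337 and 410 CPM with OTX015 and 352, 313 and 286 CPM with DMSO, where NEO2734 and DMSO did not overlap and OTX015 and DMSO did. In Toledo 447, 432 and 479 CPM with NEO2734 and 363, 477 and 354 CPM with OTX015 overlapped with 344, 445 and 303 CPM with DMSO. The 445 CPM belonged to replicate 2, in which OCILy10 genes were found, and all treated Toledo libraries lay above the 344 and 303 CPM. By line, the NEO2734 difference of CTNNB1 was 0.53 ± 0.16 in DOHH2 (adjusted p = 0.0665), 0.46 ± 0.16 in OCILy10 (0.183), 0.44 ± 0.16 in TMD8 (0.193) and 0.31 ± 0.16 in Toledo (0.323). In the 3 lines where same-numbered NEO2734 and DMSO libraries correlated, the fit with the replicate block called CTNNB1 in each. The adjusted p was 0.0134 in DOHH2, 0.0371 in OCILy10 and 0.047 in TMD8, and in DOHH2 and TMD8 pairing cannot be told apart from library depth. The OTX015 mean of CTNNB1 was no longer called without OCILy10 DMSO replicate 1 (adjusted p = 0.0571) or Toledo DMSO replicate 1 (0.0575), and ULK4 overlaps CTNNB1 on the other strand.

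AXIN1 (ENSG00000103126.13, chr16:287440-352673, minus strand), the constitutive scaffold of the destruction complex, varied widely between libraries of 1 group and was not called. Its 39 levels ran between 4.61 and 60.0 CPM, and the mean difference was 0.27 ± 0.28 with NEO2734 (adjusted p = 0.615) and 0.43 ± 0.28 with OTX015 (adjusted p = 0.385). OCILy10 was the only line without overlap between NEO2734 and DMSO, at 25.4, 29.3 and 23.2 CPM with NEO2734 and 10.5, 17.4 and 20.1 CPM with DMSO, and the difference of 0.71 ± 0.56 was not called there either. In Toledo, AXIN1 had 58.5, 37.7 and 14.0 CPM with NEO2734 and 14.0, 35.5 and 35.8 CPM with DMSO.

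AXIN2 (ENSG00000168646.11, chr17:65528563-65561647, minus strand), the scaffold gene induced by Wnt signalling and often used as its readout, was seen at more than a few counts in Toledo and OCILy10. In Toledo it had 8.42, 7.32 and 6.49 CPM with NEO2734, 6.70, 7.84 and 10.2 CPM with OTX015 and 4.58, 2.46 and 5.12 CPM with DMSO. All treated libraries were above all vehicle ones, but neither 0.89 ± 0.83 with NEO2734 (adjusted p = 0.731) nor 1.04 ± 0.83 with OTX015 (adjusted p = 0.738) passed the test. In OCILy10 AXIN2 had 1.78, 0.725 and 0.407 CPM with NEO2734 and 0.745, 0.144 and 0 CPM with DMSO. All 9 TMD8 libraries held 0 counts, so no mean over the lines was estimated.

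**Figure D3:**
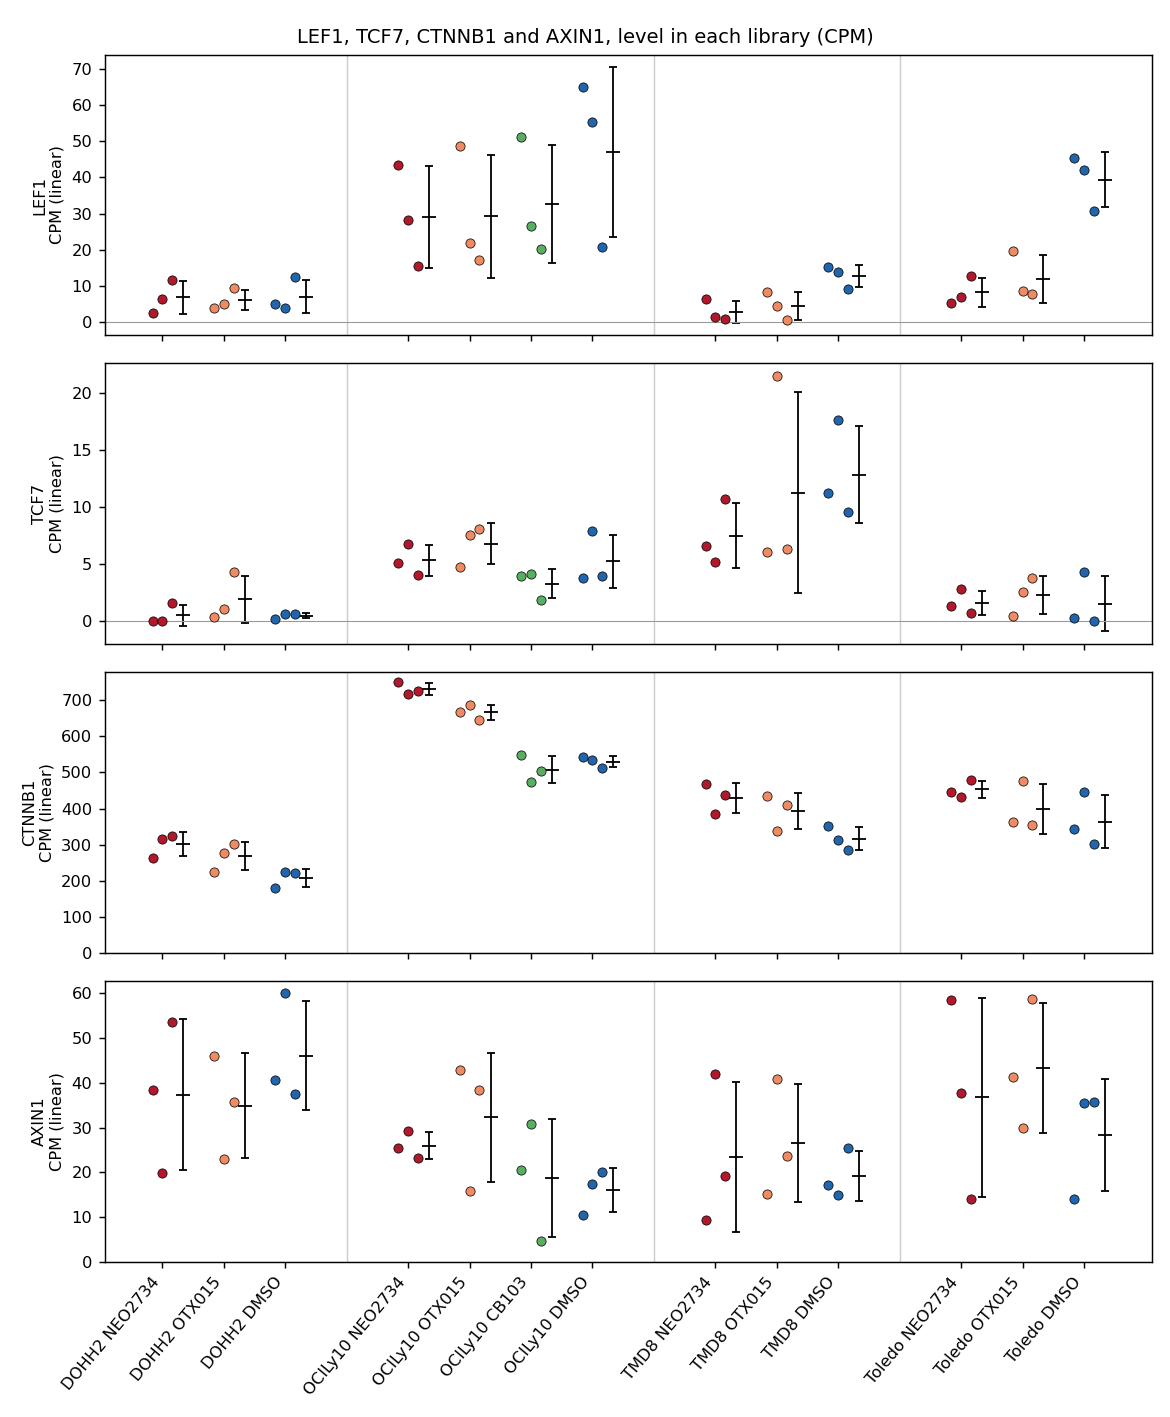
CPM (linear axes) of LEF1, TCF7, CTNNB1 and AXIN1 in each of the 39 libraries, by line and compound; points are replicates 1 to 3 and the dash with its bar is mean ± SD. LEF1 is lower with NEO2734 and OTX015 than with DMSO in every TMD8 and Toledo library and low in DOHH2 with any treatment, and CTNNB1 is higher with NEO2734 than with DMSO in every DOHH2, OCILy10 and TMD8 library.

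DACT3 (ENSG00000197380.9, chr19:46647612-46661138, minus strand), the Dapper family antagonist, rose in the lines not used to choose it, by 2.39 ± 0.47 on the log2 scale with NEO2734 (adjusted p = 0.000647) and by 1.68 ± 0.48 with OTX015 (adjusted p = 0.033). In DOHH2 it had 1.45, 1.24 and 3.71 CPM with NEO2734, 0.861, 0.558 and 2.15 CPM with OTX015 and 0.113, 0 and 0.647 CPM with DMSO. In OCILy10 it had 2.81, 2.18 and 4.07 CPM with NEO2734, 1.55, 2.26 and 1.08 CPM with OTX015 and 0.958, 0.288 and 0 CPM with DMSO. In TMD8 it had 3.09, 3.50 and 3.06 CPM with NEO2734, 2.07, 3.59 and 2.11 CPM with OTX015 and 0.647, 2.77 and 0.481 CPM with DMSO. The NEO2734 libraries were above all DMSO libraries in each of the 3 lines, and the OTX015 libraries in OCILy10.

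The NEO2734 mean of DACT3 stayed called in all 18 leave-one-out fits (2.18 to 2.83). The OTX015 mean was lost in 9 of 18, at adjusted p between 0.05 and 0.108, each time without 1 of DOHH2 DMSO replicates 1 and 2, OCILy10 DMSO replicate 2, TMD8 DMSO replicates 1 and 3, DOHH2 OTX015 replicate 3, OCILy10 OTX015 replicates 1 and 2 or TMD8 OTX015 replicate 2. No single line was called: DACT3 stood at 3.25 ± 0.93 in DOHH2 (adjusted p = 0.0516), 2.52 ± 0.745 in OCILy10 (0.0957) and 1.40 ± 0.75 in TMD8 (0.501) with NEO2734. The replicate block, whose pairing in DOHH2 cannot be told apart from library depth, brought DACT3 to adjusted p of 0.0318 in DOHH2 and 0.0331 in OCILy10. The DOHH2 value rests on 21 counts with NEO2734 against 2 with DMSO, a pooled ratio of 10.7 (95% counting interval 2.62 to 94.2).

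In Toledo, the line used for the choice, DACT3 had 7.02, 8.44 and 3.91 CPM with NEO2734 (15, 15 and 38 counts), 3.92, 9.80 and 15.3 CPM with OTX015 and 2.21, 0.546 and 1.02 CPM with DMSO (14, 2 and 1 counts). All treated libraries were above all vehicle ones, at 2.24 ± 0.74 with NEO2734 and 2.83 ± 0.75 with OTX015, given without a test. The size moved with depth: the deep libraries gave 0.794 ± 0.746 with NEO2734 and 0.819 ± 0.754 with OTX015 for DACT3, and the shallow ones 3.32 ± 0.856 and 4.02 ± 0.837. Without the 3 libraries with genes of another line, the Toledo values of DACT3 were 1.82 ± 0.82 and 2.38 ± 0.84. DACT3 overlaps DACT3-AS1, which was not analysed here.

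**Figure D4:**
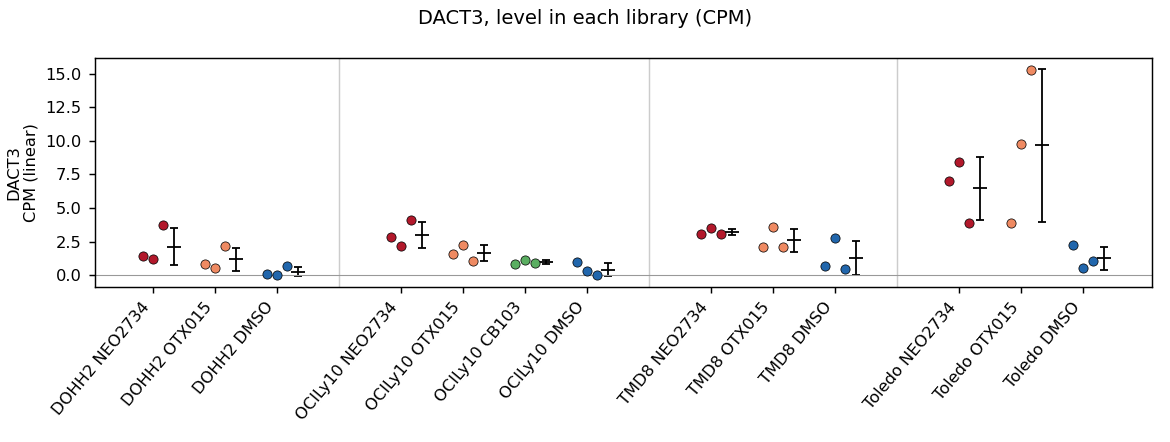
CPM (linear axis) of DACT3 in each of the 39 libraries, by line and compound; points are replicates 1 to 3 and the dash with its bar is mean ± SD. In each line the NEO2734 points lie above the DMSO points, and the highest level, 15.3 CPM, is in Toledo with OTX015.

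Across the 33 pairs of a gene and a line outside the choice, 1 was called with NEO2734, WNT10A in Toledo, and 0 with OTX015, by edgeR's quasi-likelihood test. Among all genes, 2.9% were called with NEO2734 in DOHH2, 1.01% in OCILy10, 2.17% in TMD8 and 5.47% in Toledo, and with OTX015 0.125%, 0.0702%, 0.39% and 3.09% in the same order of lines. At an unadjusted p under 0.05 there were 3, 3, 4 and 2 pairs with NEO2734 and 2, 2, 1 and 1 with OTX015, again in that order. The pairs tested numbered 7, 9, 9 and 8. Of all 12814 genes, 1929, 1411, 1534 and 2180 were under that threshold with NEO2734 and 990, 970, 897 and 1757 with OTX015. DESeq2 called 4 pairs with NEO2734 and 0 with OTX015. Of all genes it called 6.15%, 2.7%, 3.26% and 7.36% with NEO2734 and 0.895%, 0.671%, 1.08% and 4.95% with OTX015. The groups did not overlap in 15 of the 33 pairs with NEO2734 and in 9 with OTX015. Over all genes the groups did not overlap in 18.4%, 20.0%, 17.9% and 13.1% with NEO2734 and in 13.5%, 12.6%, 12.9% and 10.4% with OTX015, line by line as above.

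Whether a response differed between the lines was tested with an F-test for the 6 members that the choice did not touch and that passed the filter. None was called with NEO2734 or OTX015, none had an unadjusted p under 0.05 and DESeq2 called 0. The backgrounds were 0.0156% and 0.0% of all genes called by edgeR, and 0.918% and 0.0346% by DESeq2. The LEF1 values of TMD8 and Toledo are therefore not shown to differ from that of DOHH2.

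NEO2734 and OTX015 share their BET target and differ in that NEO2734 also blocks CBP/p300, and at their unstated doses they were set against each other over the lines. No member of 9 was called in NEO2734 over OTX015 by edgeR, none had an unadjusted p under 0.05 and DESeq2 called 0. Of all genes, edgeR called 0.0312% and DESeq2 0.0893% over the 4 lines. For AXIN2 and WNT10B both TMD8 groups held 0 counts, so these means could not decide for them. WNT10A was −0.77 ± 0.38 over OCILy10, TMD8 and Toledo (unadjusted p = 0.0508 in the edgeR fit), DACT3 0.71 ± 0.43 over DOHH2, OCILy10 and TMD8 and WNT3 −0.45 ± 0.31 over OCILy10, TMD8 and Toledo. CTNNB1 was 0.15 ± 0.08, LEF1 −0.23 ± 0.35, TCF7 −0.85 ± 0.51 and AXIN1 −0.17 ± 0.28 over the 4 lines. Within lines, WNT3 in TMD8 was −1.33 ± 0.56 (unadjusted p = 0.024 in the edgeR fit, adjusted p = 1.0) and WNT10B in Toledo −2.14 ± 0.98 (unadjusted p = 0.039, adjusted p = 1.0), both with every NEO2734 library below every OTX015 one and neither called. Both compounds were compared with the same DMSO libraries, so their values against DMSO are not independent. These standard errors leave room for differences, so the compounds are not shown to act alike on these genes.

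CB103 in OCILy10 gave no called member: 0 of 9 were called by edgeR, 0 had an unadjusted p under 0.05 and DESeq2 called 0. Of all genes, edgeR called 0.0% and DESeq2 0.282% with CB103. WNT10A averaged 27.1 CPM with CB103 and 32.4 CPM with DMSO (−0.26 ± 0.63), LEF1 32.7 and 47.1 CPM (−0.52 ± 0.65) and CTNNB1 508 and 530 CPM (−0.06 ± 0.16). WNT3 had 4.91, 4.18 and 5.53 CPM with CB103 and 4.47, 5.04 and 4.02 CPM with DMSO (0.10 ± 0.53). DACT3 had 0.862, 1.14 and 0.921 CPM with CB103 and 0.958, 0.288 and 0 CPM with DMSO (0.93 ± 0.78). The SE was 0.16 for CTNNB1 and at least 0.53 for the other genes, which leaves room there for differences of the size seen with NEO2734. OCILy10 CB103 replicate 2 is the library that held Toledo genes.

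With DMSO, the levels of several Wnt genes differed between the lines, while CTNNB1, AXIN1, WNT10A and LEF1 were detected in all 4. CTNNB1 was highest in OCILy10, at 530 ± 15.2 CPM (SD, n = 3), followed by Toledo at 364 ± 73.1, TMD8 at 317 ± 32.8 and DOHH2 at 209 ± 24.6. TMD8 and Toledo did not differ beyond their spread (adjusted p = 0.409 by edgeR), and each other pair of lines did. WNT3 was highest in Toledo at 12.1 ± 3.31 CPM, then TMD8 at 6.52 ± 0.602 and OCILy10 at 4.51 ± 0.513, with neighbours in that order not called, while DOHH2 with 3 counts in all was below each of them. LEF1 stood at 47.1 ± 23.4 CPM in OCILy10 and 39.4 ± 7.73 in Toledo, which did not differ beyond their spread (adjusted p = 0.863), at 12.7 ± 3.15 in TMD8 and at 7 ± 4.63 in DOHH2. For LEF1 the steps between Toledo and TMD8 (0.077) and between TMD8 and DOHH2 (0.386) were not called either, while OCILy10 lay above TMD8 (0.0456), and DOHH2 below OCILy10 (0.00313) and Toledo (0.00921).

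TCF7 had 12.9 ± 4.28 CPM in TMD8, 5.26 ± 2.31 in OCILy10, 1.56 ± 2.44 in Toledo and 0.497 ± 0.235 in DOHH2, with no call between neighbours in that order, and TMD8 was above Toledo (adjusted p = 0.0296) and DOHH2 below OCILy10 (0.0153) and TMD8 (0.00168). AXIN2 had 4.05 ± 1.40 CPM in Toledo, above DOHH2 (adjusted p = 0.00229), OCILy10 (0.0169) and TMD8 (0.000492), where 0 counts allow up to 0.228 CPM. AXIN1 had 46.1 ± 12.2 CPM in DOHH2 and 16 ± 4.92 in OCILy10 (adjusted p = 0.0406), and Toledo at 28.5 ± 12.5 and TMD8 at 19.2 ± 5.55 lay between. In Toledo, DMSO replicate 2 was the highest of the 3 for WNT10A, TCF7 and CTNNB1 and the lowest for WNT3, AXIN2, DACT3 and TCF7L2. By the F-test over the 4 DMSO groups, 5 of the 6 members whose levels the choice did not use were called (AXIN2, CTNNB1, LEF1, TCF7 and WNT3), where 48.1% of all genes were. The DMSO levels of DACT3, which the choice used in Toledo, are given without a test. The 6 pairwise contrasts called 30.1% of all genes between DOHH2 and OCILy10, 28.5% between DOHH2 and TMD8, 23.5% between DOHH2 and Toledo, 20.8% between OCILy10 and TMD8, 15.9% between OCILy10 and Toledo and 24.9% between TMD8 and Toledo.

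WNT10A and WNT10B, for which a level in DOHH2 was a condition of the choice, are described. WNT10A averaged 15.7 ± 9.12 CPM in DOHH2, 32.4 ± 15.7 in OCILy10, 38.5 ± 11.4 in TMD8 and 14.7 ± 10.6 in Toledo with DMSO. No pair of the 3 lines outside the choice was called. TMD8 and Toledo did not overlap, at a difference of 1.38 ± 0.64 on the log2 scale (adjusted p = 0.118 by edgeR). WNT10B averaged 8.80 ± 3.04 CPM in DOHH2 and 1.78 ± 0.839 in Toledo. Per kb of exon, so that genes can be compared, the CTNNB1 level with DMSO was 17.5 CPM per kb in DOHH2, 44.4 in OCILy10, 26.6 in TMD8 and 30.5 in Toledo, the highest of the 10 genes in each line. WNT10A followed in OCILy10 at 9.49 CPM per kb and in TMD8 at 11.3, AXIN1 in DOHH2 at 6.15 and LEF1 in Toledo at 7.35.

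**Figure D5:**
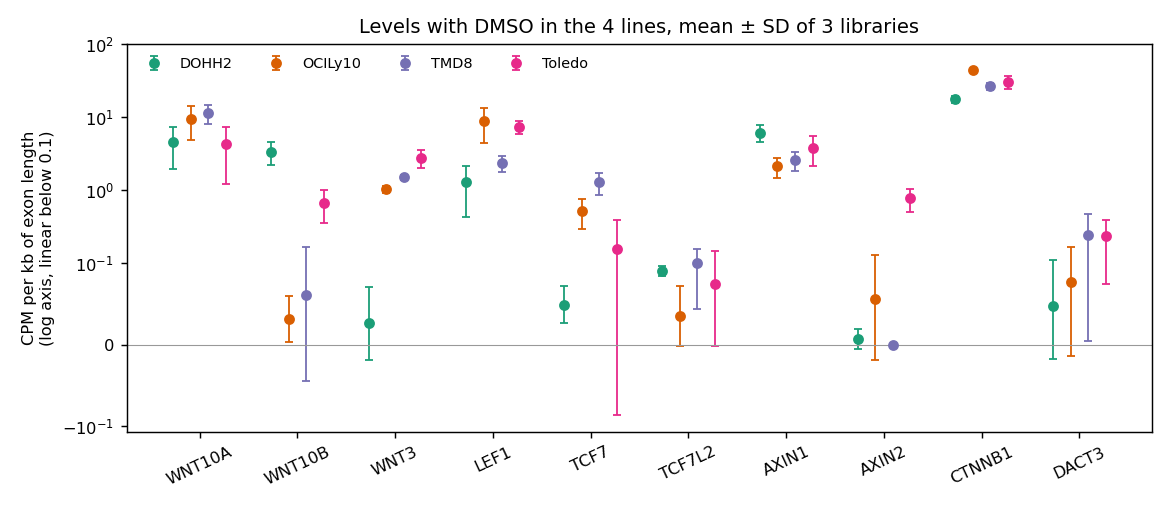
DMSO level in CPM per kb of exon (logarithmic axis, linear below 0.1) of the 10 genes in the 4 lines, mean ± SD of 3 libraries. CTNNB1 is the highest gene in each line, and WNT10B is higher in DOHH2, and AXIN2 in Toledo, than in the other lines.

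Beyond these 10 genes, 96 other Wnt pathway genes were listed by role, of which 59 are in the table and 50 were tested. With NEO2734 7 were higher and 4 lower (22.0% called), and with OTX015 5 were higher and 2 lower (14.0% called). These shares lay near those of all genes tested, 20.5% with NEO2734 and 11.6% with OTX015, so the genes below are given as single results and nothing is read from the list as a whole. The list's median log2 change was 0.167 with NEO2734 and 0.158 with OTX015, against −0.024 and −0.0266 over all genes tested. Receptors gave 3 higher and 0 lower of 10 with NEO2734, cytoplasmic genes 3 and 1 of 19, nuclear genes 1 and 1 of 11, ligands 0 and 1 of 4 and target genes 0 and 1 of 2.

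Among receptors, FZD7 rose by 1.49 ± 0.25 with NEO2734 (6.98 CPM against 2.59 CPM with DMSO, means over the lines, adjusted p = 5.97e-05) and by 1.04 ± 0.25 with OTX015 (0.00562). FZD5 rose by 0.88 ± 0.28 with NEO2734 (9.03 CPM against 4.62, adjusted p = 0.024). GSK3B, the kinase of the destruction complex, rose by 0.63 ± 0.12 with NEO2734 (111 CPM against 72.0, adjusted p = 0.000238) and by 0.58 ± 0.12 with OTX015 (0.00144). PYGO2, a nuclear co-activator of beta-catenin, rose by 0.64 ± 0.09 with NEO2734 (80.0 CPM against 51.7) and by 0.47 ± 0.09 with OTX015. The tankyrase genes TNKS and TNKS2, whose products mark Axin for destruction, rose by 0.49 ± 0.12 and 0.38 ± 0.10 with NEO2734. With OTX015 TNKS2 rose by 0.33 ± 0.10 (adjusted p = 0.0357 by edgeR). RYK, listed with the receptors, rose by 0.33 ± 0.11 with OTX015 (adjusted p = 0.0468) and by 0.32 ± 0.11 with NEO2734 (0.0335).

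The ligand gene WNT5B, of the branch that acts without beta-catenin, fell by 2.67 on the log2 scale with NEO2734 (SE 0.495, 2.88 CPM against 8.47 with DMSO, adjusted p = 0.000216) and by 2.38 with OTX015 (SE 0.506, 4.09 CPM, adjusted p = 0.00221). The log2 value weighs the 4 lines equally, also those with low counts, so it is larger than the ratio of these mean CPM. All treated libraries lay below all DMSO ones in 3 lines with NEO2734 and in 1 with OTX015. MYC, a Wnt target in gut epithelium, fell by 1.38 with NEO2734 (95.2 CPM against 200) and by 0.77 with OTX015 (138 CPM, adjusted p = 0.0196). AMER1, which brings Axin and APC together at the membrane, fell by 0.91 with NEO2734 (33.5 CPM against 50.3, adjusted p = 0.000476), and TLE3, a co-repressor bound by the TCF factors, fell by 0.57 (52.4 CPM against 79.7, adjusted p = 0.0317).

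The genes next to WNT10B were read for the same lines. DDN, which encodes dendrin and lies 23386 bases beyond WNT10B at chr12:48995149-48999309, fell with NEO2734 in DOHH2 by 3.11 on the log2 scale (SE 0.56, adjusted p = 0.00204), with 2.42 ± 1.70 CPM against 23.0 ± 4.52 CPM with DMSO. In Toledo DDN fell by 1.91 (SE 0.53, adjusted p = 0.03), with 4.50 ± 0.751 CPM against 16.9 ± 8.72 CPM with DMSO. With OTX015 DDN was called in neither line (adjusted p = 0.116 in DOHH2 and 0.411 in Toledo). ARF3, the nearest neighbour on the other side, FKBP11 and RND1 were not called in either line with either compound. Over the 4 lines, RND1 rose by 1.40 ± 0.35 with NEO2734 (adjusted p = 0.00371) and by 1.16 ± 0.34 with OTX015 (0.0247), and FKBP11 fell by 0.57 with NEO2734 (0.00136) and by 0.54 with OTX015 (0.00533). The neighbours of WNT10A with a symbol (TTLL4, STK36, CDK5R2) and CALM3, PRKD2 and STRN4 around DACT3 were not called in DOHH2 or Toledo with either compound. PTGIR, 22494 bases from DACT3, stood at −4.73 ± 1.49 in DOHH2 with NEO2734, which was not called (adjusted p = 0.0931), and had 0 counts in Toledo with DMSO. The link between the DDN and WNT10B values was not tested.

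The genes most like the 3 chosen ones over the 13 group means are given as a description, with Pearson's r on points that share libraries, lines and compounds. For WNT10A they were FAM210A (0.96), ANP32A (0.947), the B cell marker gene MS4A1 (0.945), SEH1L (0.939) and RASSF2 (0.937). For WNT10B they were ENTPD6 (0.939), SRPRB (0.924), MLLT6 (0.901), SMARCA4 (0.891) and VPS9D1-AS1 (0.881), and for DACT3 SUFU (0.965), KCTD21 (0.957), SP4 (0.947), OS9 (0.943) and DPF2 (0.939). MS4A1 belongs to the 6 B cell markers, whose summed level was 391 to 650 CPM with NEO2734 and 804 to 1250 CPM with DMSO in DOHH2, 1090 to 1310 CPM with NEO2734 and 2100 to 2190 CPM with DMSO in OCILy10, and 1470 to 2170 CPM with NEO2734 and 2720 to 3900 CPM with DMSO in TMD8. In Toledo the sums overlapped, at 1060 to 1430 CPM with NEO2734 and 1360 to 2150 CPM with DMSO. The part of these levels in the WNT10A values was not tested.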

How the data were processed

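RNA from 39 libraries (13 groups of 3) was extracted with Trizol and sequenced from Illumina TruSeq RNA libraries, per the labels. The authors deposited counts per gene, whole numbers with no normalization, in 2 tables. In these, 38 columns were equal and OCILy10 CB103 replicate 1 differed (11430777 against 5474462 counts). The table named as raw was used. STAR, edgeR and hg38 appear in the submitters' processing notes. For the read counter, its annotation and the strandedness, the entry is: not given in the sources used here. Part of the labels' shared text names other compounds and another duration, and each sample's own label (6 h) was used.

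From the counts, edgeR 4.0.16 in R 4.3.3 was run with TMM scaling, filterByExpr by group, 1 coefficient per group and a quasi-likelihood test with 26 residual degrees of freedom, checked on simulated data. It tested 12814 genes, and p-values were adjusted over all of them by the Benjamini-Hochberg method, with 0.05 as threshold. CPM are counts per 1000000 counts of the TMM-adjusted library size. A group at 0 has 3 counts over the group as its upper limit, and intervals cover counting error only. DESeq2 1.42.0 was an alternative. Where the main result for a mean of lines had a group with 0 counts, no fold is given.

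The members and the lists were chosen with earlier results of these data known. All members are named, and from the Wnt list the called genes, up to 6 in each direction by size. Genes most alike were ranked by Pearson's r among genes of at least 5 CPM in 1 group. Genes private to a line had over 10 CPM in its libraries and under 1 CPM at the 90th percentile elsewhere (16 such genes in DOHH2, 10 in OCILy10, 11 in TMD8, 13 in Toledo). Gene coordinates are those of GENCODE 29 and promoters those of RefSeq on GRCh38.p14.

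Replicate numbers were taken as pairs where the deviations of same-numbered libraries from their group means correlated above 0.1 in all 3 pairs. This held in DOHH2 (r of 0.273 to 0.89 between NEO2734 and DMSO and 0.585 to 0.921 between OTX015 and DMSO), in TMD8 (0.417 to 0.877 and 0.372 to 0.919) and in OCILy10 between NEO2734 and DMSO (0.82 to 0.914). It did not hold between OTX015 and DMSO in OCILy10 (−0.64 to 0.755), between CB103 and DMSO (0.0428 to 0.758) or in Toledo (−0.687 to −0.134 with NEO2734 and −0.231 to 0.579 with OTX015). The origin of the pairing is in the data, not the labels. The rule did not compare same-numbered with differently numbered libraries. In DOHH2, between NEO2734 and DMSO, replicates 2 and 3 correlated across numbers at 0.493 and 0.685, and with the same number at 0.423 and 0.273. In TMD8 these were 0.423 and 0.484 across numbers, and 0.417 and 0.714. Replicate 1 was deep and replicates 2 and 3 shallow in those groups, so pairing there cannot be told apart from depth.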

Additional observations from a re-analysis of the deposited data

How the results depend on the processing

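The counts of genes called were recomputed with RLE factors, library totals, no filter, DESeq2, the replicate block, a depth term, deep or shallow libraries alone, without the 3 libraries holding another line, and without each library in turn. No direction reversed. Members called with NEO2734 over the lines (5) became 1 in deep libraries alone and 4 to 5 without single libraries. With OTX015 (2) they became 3 with RLE factors or DESeq2, both adding LEF1, 4 with the replicate block or the depth term, 0 in deep libraries and 1 to 3 without single libraries. Shallow libraries alone also gave 2, but these were LEF1 and WNT10A in place of CTNNB1 and DACT3, and the block added LEF1 at −1.10 (adjusted p = 0.00125, edgeR) and WNT10A at −0.927 (0.0243). Pairs of a gene and a line called with NEO2734 (1) became 2 with RLE factors, 4 with library totals, 4 with DESeq2, 9 with the replicate block (those given above, and LEF1 in Toledo, where the numbers do not pair the libraries), 8 with the depth term, 2 in shallow libraries, 0 in deep libraries, 0 without the 3 libraries, 0 with the line's own libraries alone, and 0 to 4 without single libraries. With OTX015 (0) they became 1 with the block, the depth term or shallow libraries (LEF1 in Toledo, adjusted p = 0.0275 with the block and 0.0464 in shallow libraries), and 0 without each library. Wnt list genes called with NEO2734 (11) became 17 with the block, 21 with the depth term, 3 in deep libraries and 8 to 13 without single libraries, and with OTX015 (7) 11 with the depth term, 0 in deep libraries and 5 to 9 without single libraries. NEO2734 over OTX015, the 2 tests of a response between lines and CB103 stayed at 0 in every fit, and the DMSO levels, DACT3 left aside, at 5, or 6 with AXIN1 in deep libraries. Deep libraries alone hold 1 library in most groups, so that the lone library is assumed to vary like the others. Over the 4 lines, NEO2734 called 20.5% of all genes in the main fit, 28.5% with the block and 30.5% with the depth term. With OTX015 these shares were 11.6%, 18.9% and 20.1%. Within single lines the share with NEO2734 also rose in each, in OCILy10 from 1.01% to 5.06% and 4.89%. With OTX015 in Toledo it fell from 3.09% to 2.34% with the block. Without the 3 libraries the share with NEO2734 was 1.5% in DOHH2, 1.63% in OCILy10, 2.89% in TMD8 and 0.623% in Toledo. With the line's own libraries alone it was 0.675%, 1.17%, 1.82% and 0.0%, in that order of lines. In shallow libraries alone it was 1.49%, 0.0155%, 0.712% and 5.72%. No shift in these counts is read as particular to the Wnt genes, and the cause of the shifts in the other fits was not tested. Among single gene values, 30 refits lost a call, 14 gained one, 357 stayed on their side of the threshold or, with no test, within their spread, and 9 values with no test (WNT10A and WNT10B in DOHH2, DACT3 in Toledo) moved beyond it. Low counts in the shallow libraries limit WNT10B, TCF7L2, AXIN2 and DACT3.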
